A study of Drosophila melanogaster with 3 samples.

Results

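The 52 protein-coding genes whose symbols begin with eIF or eEF in the fly annotation encode translation initiation factors (44 genes) and elongation factors (8 genes). They were taken by symbol from 13986 protein-coding genes, with earlier results of these data known, and the other 13934 serve for comparison. The data are chromatin immunoprecipitation and sequencing (ChIP-seq) peak lists from whole Drosophila melanogaster white prepupae, the stage at which the larva has just become immobile, with both sexes pooled. All 3 samples, biological replicates of 1 group, came from the same transgenic line, which stably expresses a CG8632-eGFP fusion with the tag at the C-terminus, and the precipitation used an antibody to GFP. CG8632 is annotated as ZnT49B, by its name a zinc transporter. Control samples were not analysed here, so how far recovery depended on the fusion protein was not tested. The IDR set, the optimal peaks from an analysis of the irreproducible discovery rate, held 6469 peaks and was identical to the 6469 strongest calls on the pooled reads. It therefore has no replicates of its own, and each result is also given from the separate replicate lists, of which the strongest 6469 calls are termed strong. The lists give no read counts, so sequencing depth is unknown.

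Initiation factors bring the ribosomal subunits, the initiator tRNA and an mRNA together. eIF2 carries the initiator tRNA and is recharged with GTP by eIF2B, the eIF4 factors recognise the mRNA cap and unwind the leader, and eIF3 is the large scaffold on the small subunit. eIF5B joins the subunits, eEF1 delivers aminoacyl-tRNAs, and eEF2 moves the ribosome along the mRNA. Many of these proteins are needed in every growing cell, whereas some eIF4E and eIF3 genes are paralogs of a main gene.

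An IDR peak had its summit within 500 bp of an annotated start of 11 of the 52 genes, or 21.2% (Wilson 95% interval 12.2 to 34.03, counting error only), against 17.0% of the other protein-coding genes (2362 of 13934). The difference was 4.2 percentage points, and the 17.0% lies within that interval, so the share in the family was not distinguishable from the background. Strong calls in the separate lists gave 21.2% in replicate 1, 17.3% in replicate 2 and 25% in replicate 3, against 17.3%, 17.3% and 18.3% of the other genes in the same order. The replicates averaged 21.2% ± 3.85 for the family and 17.6% ± 0.574 for the other genes (SD, n = 3). The excess was 3.88, 0.0406 and 6.74 percentage points in replicates 1, 2 and 3, or 3.55 ± 3.36 (SD, n = 3), so its mean is about the size of its spread. No test was run on it, since 3 paired values of 1 group cannot reach an exact two-sided p below 0.25. Requiring a strong call in all 3 replicates left 7 of the 52 genes, or 13.5%, against 12.6% of the others.

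**Figure D1:**
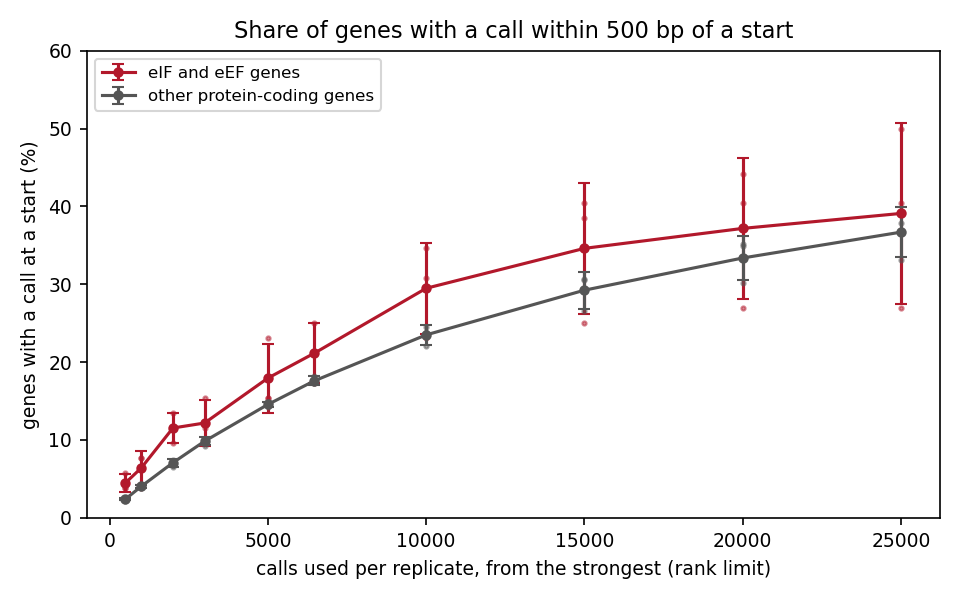
Share of genes with a call within 500 bp of a start (y axis, %) as more calls per replicate are used, from the strongest on (x axis, rank limit), for the 52 eIF and eEF genes in red and the other protein-coding genes in grey. Large points and bars are the mean ± SD of 3 replicates and small dots the single replicates. At 6469 calls the means are 21.2% and 17.6%. At that limit, at every larger one shown and at 1000 and 3000 calls, the lowest replicate of the family lies below the mean of the other genes.

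The strongest peak of the family was at eIF4EHP (FBgn0053100), which encodes a cap-binding protein that competes with eIF4E and represses selected mRNAs. It lay on chromosome 3R (dm6, 24108994 to 24109406) and had rank 37 in the IDR set. Replicates 1, 2 and 3 gave it signals of 565, 439 and 574, a mean of 526 ± 75.2 (SD, n = 3), and ranks of 39, 39 and 35. Signal is the authors' value for the strength of a call, in units that the files do not define. The replicates thus placed it almost identically. The summit lay between divergent starts, 254 bp upstream of eIF4EHP and 122 bp upstream of CG18428, so the nearer start was that of the neighbour.

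eEF1gamma (FBgn0029176; 3R, 29220038 to 29220250), a structural subunit of the exchange factor that recharges eEF1alpha, had the strongest peak among the elongation factors, at rank 772. Its signal was 122, 134 and 229.6 in replicates 1 to 3, a mean of 162 ± 59.0 (SD, n = 3), with ranks of 1639, 716 and 427. Replicate 3 was the highest and replicate 1 the lowest, and all 3 calls were strong. The summits of the replicates lay within 1 bp of each other, 28 to 29 bp upstream of the start, and no other gene started within 500 bp.

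The sequences below are reference sequence (RefSeq, Release 6 genome, dm6) around the IDR summits of 5 members, shown because they differ in base composition and include DRE matches near the summit. Each reads 5′ to 3′ in the direction of the member's transcription, reaches at most 60 bp to either side of the summit and leaves out annotated exons. They are chr3R:24109154-24109274 for eIF4EHP (minus strand), chr3R:29220084-29220171 for eEF1gamma (plus strand), chr3L:3222961-3223064 for eIF1 (plus strand), chr2L:5052442-5052562 for eIF3h (minus strand) and chr3L:12526980-12527100 for eIF2beta (minus strand). Capitals mark the DNA replication-related element (DRE, tatcgata, which reads the same on both strands), a site found at many housekeeping promoters; the other motifs searched had no match in these windows.
eIF4EHP: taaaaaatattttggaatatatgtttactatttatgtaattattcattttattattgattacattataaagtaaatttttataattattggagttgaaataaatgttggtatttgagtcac
eEF1gamma: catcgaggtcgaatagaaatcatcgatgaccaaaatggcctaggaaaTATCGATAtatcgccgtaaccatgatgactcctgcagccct
eIF1: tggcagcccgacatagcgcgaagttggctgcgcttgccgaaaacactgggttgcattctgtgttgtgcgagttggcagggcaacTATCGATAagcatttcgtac
eIF3h: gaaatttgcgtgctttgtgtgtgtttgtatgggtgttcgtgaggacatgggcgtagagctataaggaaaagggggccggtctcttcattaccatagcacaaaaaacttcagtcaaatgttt
eIF2beta: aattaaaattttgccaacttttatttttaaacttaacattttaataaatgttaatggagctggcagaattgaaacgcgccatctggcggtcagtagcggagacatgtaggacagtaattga

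The eIF4EHP stretch is poor in G and C (16.5%), while those of eEF1gamma (45.5%) and eIF1 (53.8%) are much richer and hold the DRE 6 bp and 41 bp from the summit. The eIF3h stretch has 43.8% GC and the eIF2beta stretch 34.7%.

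Among the initiation factors, 7 of 44 genes (15.9%) had an IDR peak at a start, close to the 17.0% of the other protein-coding genes. eIF1 (FBgn0035423; 3L, 3222915 to 3223104), which helps the scanning ribosome select the start codon, had rank 1450. Its signal was 59.6, 92.04 and 175 in replicates 1 to 3 (109 ± 59.6, SD, n = 3), with ranks of 4386, 1269 and 749. Replicate 3 was the highest and replicate 1 the lowest. The summit lay 337 bp upstream of eIF1 but only 44 bp upstream of the divergent ribosomal protein gene RpL28. A weaker peak of rank 4889 lay nearer to eIF1, at 116 bp upstream. Its partner in scanning, eIF1A, had no IDR peak at a start. Its strongest start call ranked 9325 on the pooled reads, 12098 in replicate 1 and 6525 in replicate 3, with no call in replicate 2. An IDR peak of rank 5763 lay 900 bp from its nearest start, inside the gene.

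Of the eIF2 subunits, eIF2beta (FBgn0004926; 3L, 12526822 to 12527257) had a weak peak of rank 5519, 309 bp upstream of its start. Its signal was 42.7, 20.8 and 50.99 in replicates 1 to 3 (38.2 ± 15.6, SD, n = 3). The ranks of 6469, 8872 and 4905 put it exactly at the limit of the strong calls in replicate 1 and below it in replicate 2. eIF2alpha, the subunit that stress kinases phosphorylate, had only a call of rank 27795 in replicate 1, and eIF2gamma, the GTP-binding subunit, had none in any replicate. None of the 5 eIF2B subunit genes had an IDR peak at a start, against 17.0% of the other protein-coding genes. With 3 counts taken as the upper limit of a count of 0, this allows a share of up to 60%. Calls of any rank were present only for eIF2Bgamma, at ranks 12102, 25060 and 11631 in replicates 1 to 3. eIF2Balpha, eIF2Bbeta, eIF2Bdelta and eIF2Bepsilon had none, as had 44.7% of the other protein-coding genes. The start of eIF2Bbeta lay 687 bp from the summit of the second strongest IDR peak of the series (signal 2875 on the pooled reads), which is at the promoter of Ugalt. That start and the one of eIF2Bdelta, 779 bp from a peak of rank 4002, were the nearest misses of the 500 bp window. The farthest summit inside it was that of eIF1 at 337 bp. eIF2D, which can deliver initiator tRNA without eIF2, had start calls of rank 6566 in replicate 1 and 5040 in replicate 3, and none in replicate 2 or on the pooled reads. eIF2A, assigned a similar role, had start calls of rank 11597 on the pooled reads, 12210 in replicate 1 and 8196 in replicate 3, and none in replicate 2.

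Of the 16 eIF3 genes, 2 had an IDR peak at a start (12.5%, Wilson 95% interval 3.5 to 36.02), an interval that covers the 17.0% of the other genes. No call of any rank in any replicate was present at 10 of the 16, and 44.7% of the other genes also had none. The peak of eIF3h (FBgn0022023; 2L, 5052394 to 5052518) had rank 1276. Its signal was 133, 89.7 and 117 in replicates 1 to 3 (113 ± 22.0, SD, n = 3), with ranks of 1437, 1328 and 1518, so the replicates placed it alike. The summit lay in an intron, 278 bp downstream of the nearer eIF3h start and 341 bp upstream of a start of senju, which is read the other way, and was the only member summit downstream of its nearest start. An overlapping IDR peak of rank 3610 lay 75 bp downstream of the same start. eIF3m (FBgn0033902; 2R, 14164711 to 14165146) had rank 3672, and its signal was 74.0, 41.9 and 51.1 (55.7 ± 16.5, SD, n = 3). It lay between divergent starts, 104 bp upstream of eIF3m and 122 bp upstream of CG8323. eIF3c and eIF3a, core subunits of the complex, each had a strong call at a start in a single replicate. That of eIF3c ranked 3081 in replicate 1 and that of eIF3a ranked 3801 in replicate 3, and neither gene had a start call in the other replicates or on the pooled reads. The 10 genes with no call were eIF3b, eIF3d1, eIF3d2, eIF3e, eIF3f1, eIF3f2, eIF3g1, eIF3i, eIF3j and eIF3l. The remaining members, eIF3g2 and eIF3k, had best replicate ranks of 25870 and 9978.

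Of the 13 eIF4 genes, eIF4EHP was the only one with an IDR peak at a start (7.69%, Wilson 95% interval 1.37 to 33.3, which covers the 17.0% of the other genes). The helicase gene eIF4A, whose product unwinds mRNA leaders, came closest, at rank 7400 on the pooled reads and 5582, 11358 and 6850 in replicates 1 to 3. The scaffold gene eIF4G2 ranked 7893 on the pooled reads and 16380, 5767 and 8036 in the replicates. eIF4H1, an accessory factor of the helicase, ranked 8340 on the pooled reads and 8619, 6954 and 8102 in the replicates. These 3 genes and eIF2Bgamma were the only members with a start call in every replicate but no IDR peak. The main cap-binding gene eIF4E1 had a call of rank 17388 in replicate 1 and of rank 29856 on the pooled reads, and none in replicates 2 and 3. Its paralogs eIF4E3, eIF4E4, eIF4E5 and eIF4E7 had no call, and eIF4E6 had a call of rank 23282 in replicate 1. eIF4H2 had no call, and eIF4B and eIF4G1 had calls ranked 21833 and 21445 in replicate 1 only. eIF4G1 is the member on chromosome 4, and eIF4B on 3L was 4948231 bp from the nearest IDR summit.

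Of the late-acting factors, eIF6 (FBgn0034915; 2R, 23850248 to 23850553), which holds the large subunit apart from the small one, had the second strongest peak of the family at rank 60. Its signal was 388, 450.4 and 461 in replicates 1 to 3 (433 ± 39.6, SD, n = 3), with ranks of 135, 35 and 61. The summit lay 100 bp upstream of eIF6 and 71 bp into the antisense gene asRNA:CR45928, and the replicates differed by at most 7 bp. eIF5B (FBgn0026259; 3L, 3460516 to 3460951) had rank 1090, with a signal of 139, 119.7 and 144 (134 ± 12.8, SD, n = 3). Its summit lay 131 bp upstream of its inner start and 243 bp downstream of the outer, in an exon. The 32.3 kb body of eIF5B held 7 IDR summits, against 3 in the 45.9 kb body of eIF4EHP, 2 in eIF3h and 1 each in eEF1alpha1, eEF2, eIF1A and eIF4G2. Thus 7 of 52 genes (13.5%) held a summit, against 13.3% of the other protein-coding genes. eIF5, which triggers GTP hydrolysis by eIF2, had a call of rank 19363 in replicate 1 only.

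**Figure D2:**
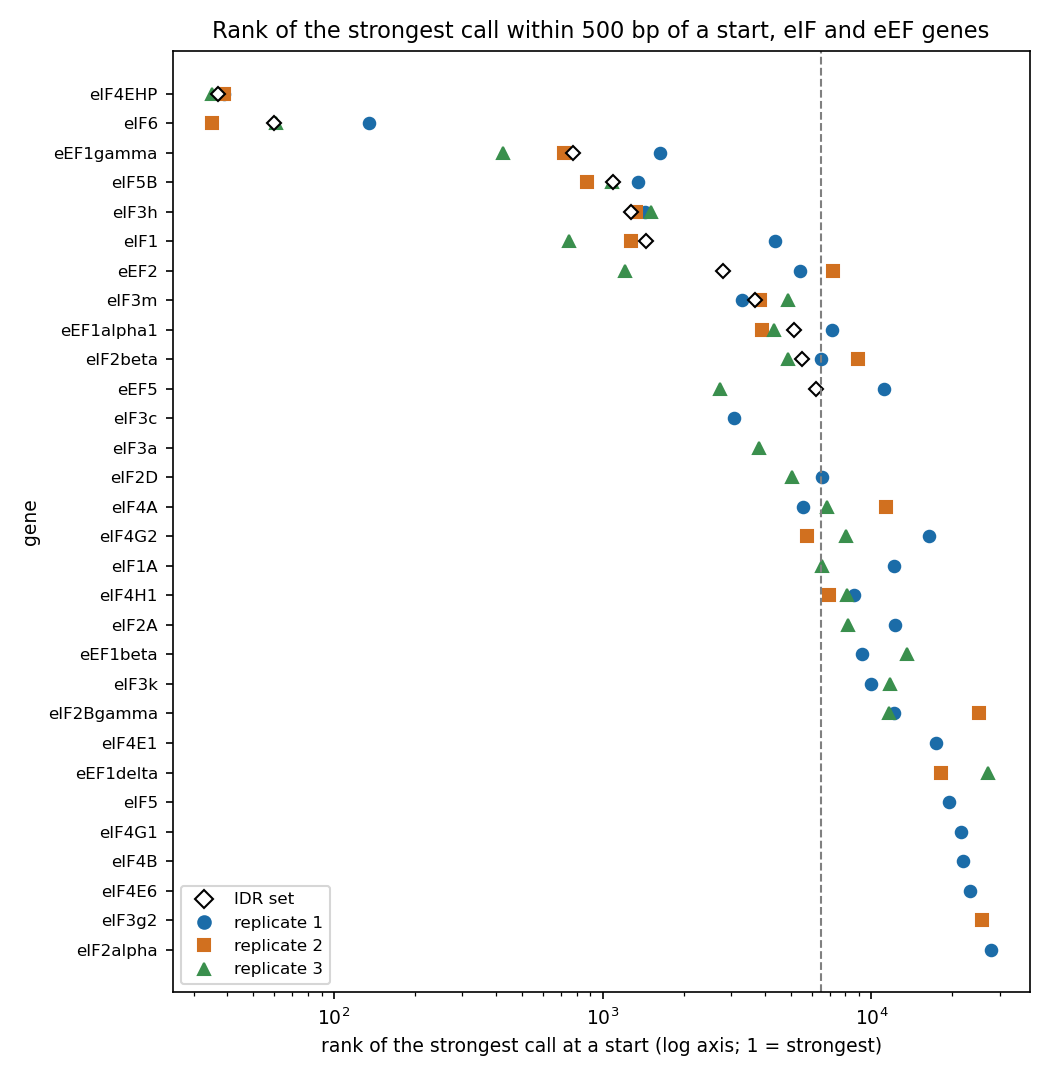
Rank of the strongest call within 500 bp of a start (log x axis, 1 is strongest) for the 30 eIF and eEF genes with a call in any replicate, ordered by IDR rank and then by best replicate rank. Open diamonds are the IDR set, filled symbols the 3 replicates, and the dashed line marks rank 6469. eIF4EHP and eIF6 stand apart at ranks of 135 or better, while eIF3c and eIF3a pass the line in a single replicate.

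The elongation factors had an IDR peak at 4 of 8 genes (50%, Wilson 95% interval 21.5 to 78.5), against 17.0% of the other protein-coding genes, but the replicates were uneven. Strong calls were present at 2, 2 and 4 of the 8 genes in replicates 1 to 3, a mean of 33.3% ± 14.4 (SD, n = 3), against 17.3%, 17.3% and 18.3% of the other genes. eEF1gamma alone had one in all 3. More than 1 start was annotated for 5 of the 8 genes (62.5%), against 26.4% of the other protein-coding genes. Other genes with 2 or more starts had an IDR peak at 31.6%, which lies within the interval of the elongation factors. The part of the number of starts was not tested. eEF2 (FBgn0000559; 2L, 21681902 to 21682337), the translocation factor, had rank 2801. Its signal was 49.8, 24.5 and 135 in replicates 1 to 3 (69.9 ± 58.1, SD, n = 3), with ranks of 5437, 7207 and 1211. Replicate 3 was far above the other replicates, and replicate 2 fell short of a strong call. Its summit lay 4 bp upstream of its inner start and 44 bp downstream of the outer.

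eEF1alpha1 (FBgn0284245; 2R, 11890832 to 11891267), which carries aminoacyl-tRNAs to the ribosome, had rank 5161 and a signal of 39.2, 41.2 and 56.2 (45.5 ± 9.31, SD, n = 3), with ranks of 7153, 3912 and 4356. These calls were not all at the same place. In replicates 1 and 3 the summit lay 85 and 87 bp upstream of the outermost start, between eEF1alpha1 and the divergent gene ERp60, whose start was nearer at 71 bp. In replicate 2 the strongest call was 37 bp upstream of an inner start, 1037 bp away from that of replicate 3 at most, and the IDR set held a second peak there, of rank 6207. eEF5 (FBgn0285952; 2R, 24057579 to 24058014), the fly eIF5A, which helps stalled ribosomes to continue, had the weakest peak of the family at rank 6226. It had a signal of 26.4 in replicate 1 and 79.4 in replicate 3, at ranks 11178 and 2727, and no call in replicate 2, so a single replicate held a strong call. Of the other members, eEF1beta had calls ranked 9210 and 13508 in replicates 1 and 3, and eEF1delta had calls ranked 18087 and 27250 in replicates 2 and 3. eEF1alpha2, a paralog of eEF1alpha1, and eEFSec, the factor for selenocysteine, had none.

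**Figure D3:**
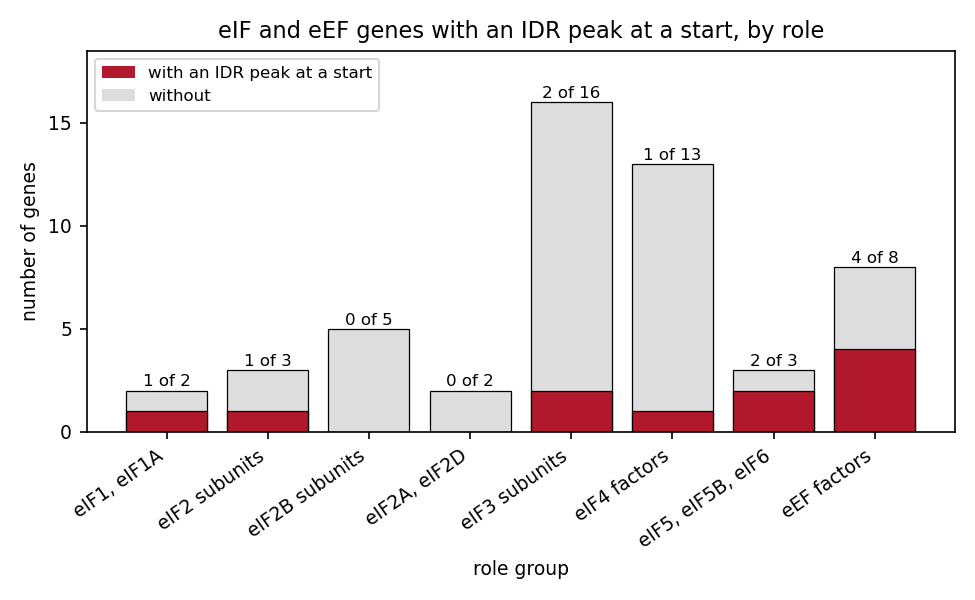
Number of eIF and eEF genes in each role group (bar height, genes) and the number with an IDR peak within 500 bp of a start (red part), with both numbers above each bar. The 4 of 8 elongation factor genes with a peak stand beside 2 of 16 eIF3 genes and 0 of 5 eIF2B genes, and the groups are too small for their shares to be told apart by their intervals.

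A stricter count set 1 replicate aside and also required an overlapping strong call in both of the others, so that it changed the replicates and the requirement together. On this count, 7 genes remained without replicate 1 and 7 without replicate 3 (13.5% each), and 9 without replicate 2 (17.3%). The other protein-coding genes fell too, to 13.4%, 13.5% and 13.7% without replicates 1, 3 and 2. The excess of the family was then 0.0268, 0.00524 and 3.6 percentage points in the same order. The part of any single replicate in the lower count was not tested. Of the elongation factors only eEF1gamma remained without replicate 1 or 3, and eEF1gamma and eEF2 without replicate 2. Calls of any rank were present at a start of 51.9%, 30.8% and 42.3% of the family in replicates 1, 2 and 3, against 42.1%, 35.8% and 40.6% of the other genes, so that the order was turned in replicate 2. Calls of any rank in all 3 replicates were found at 14 of the 52 genes (26.9%), against 24.7% of the others, and 22 of the 52 (42.3%) had none in any replicate, against 44.7% of the others.

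The signal at genes with an IDR peak was higher in the family by its median. The median over the 11 genes was 336 in the pooled signal, against 233 over the 2362 other genes with a peak. The quartiles overlapped almost wholly, at 149.9 and 443 in the family, against 152 and 404 in the others. The replicate mean had a median of 111 over the 10 family genes with a call in every replicate, against 80.0 over such other genes. It was 118, 117 and 93.6 without replicates 1, 2 and 3, against 75.3, 87.6 and 72.7. With summits within 250 bp of a start, the order of the pooled medians was turned, at 174 in the family against 226. All genes with a strong call in a replicate, which include members without an IDR peak, had medians of 78.4, 92.04 and 117 in replicates 1 to 3 in the family, against 85.4, 59.8 and 81.8. The median summit position at the 11 genes was -100 bp, that is upstream (quartiles -192.5 and -16 bp), against -156 bp at the other genes (quartiles -261 and -78 bp). A summit within 150 bp of the start was found at 7 of the 11 genes (63.6%), against 42.0% of the others. At 6 of the 11 genes another gene also started within 500 bp of the summit, and at eIF4EHP, eIF6, eIF1 and eEF1alpha1 that start was nearer than the member's own.

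**Figure D4:**
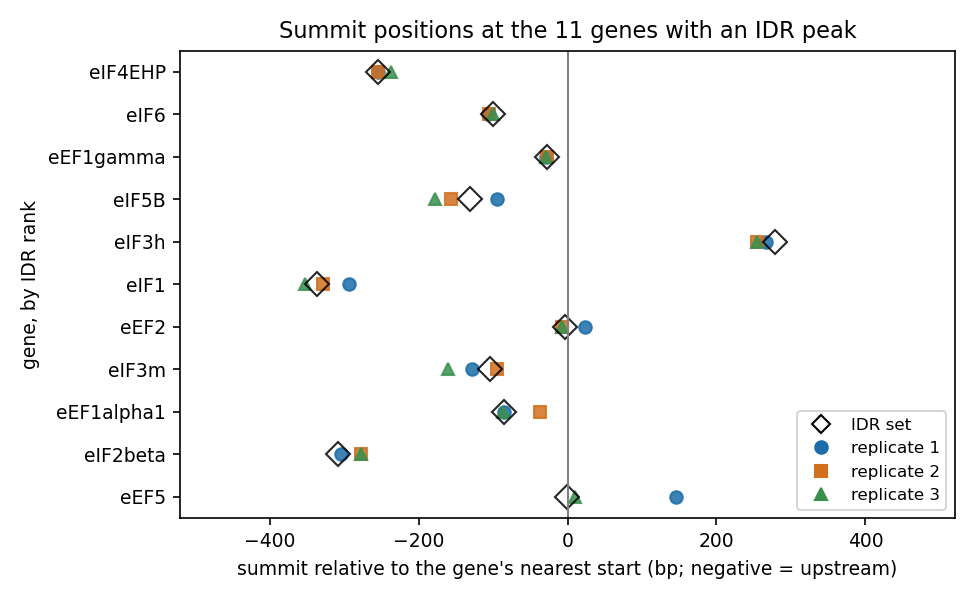
Position of the summit relative to the nearest start of each gene (x axis, bp, negative upstream) in the IDR set (open diamonds) and the 3 replicates (filled symbols), for the 11 genes with an IDR peak ordered by rank. The replicates coincide at eIF4EHP, eIF6 and eEF1gamma and scatter at eIF5B and eEF5. The replicate 2 symbol of eEF1alpha1 and the replicate 1 and 3 symbols of eEF5 are measured from another start of the gene than the IDR symbol.

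The number of starts and the presence of neighbours moved with peak calls inside and outside the family. Genes with 2 or more starts had an IDR peak at 7 of 20 members (35%), against 31.6% of the other protein-coding genes, and genes with 1 start at 4 of 32 members (12.5%), against 11.7%. Where another gene started within 500 bp of a start of the gene, 7 of 22 members had a peak (31.8%), against 27.4% of the others. Without such a neighbour, 4 of 30 members had one (13.3%), against 11.5%. More than 1 start was annotated for 38.5% of the family and 26.4% of the other genes, and a neighbouring start was present for 42.3% and 34.4%. Their part in the share with a peak was not tested.

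The base composition under most of the family's peaks differed in value from that of other start peaks, and no test was run on it. Within 100 bp to either side of the summit the median GC content was 42.3% at the 11 genes, against 32.8% at 1776 start peaks of other protein-coding genes (quartiles 28.4% and 38.8%). Of the 11 windows, 10 lay above the median of the others and 8 above their upper quartile, from eEF5 at 46.3% down to eEF1alpha1 at 39.3%. eIF3m had 35.3% and eIF2beta 33.8%, and eIF4EHP, with the strongest peak, had 24.4%, below the lower quartile. Peaks at 57 cytoplasmic ribosomal protein genes had a median of 42.8%, close to that of the family, whereas 18 peaks at mitochondrial ribosomal protein genes had 28.6% and 11 at aminoacyl-tRNA synthetase genes 28.4%. The peak shared by eIF1 and RpL28 counts for both the family and the ribosomal protein list. A peak near several genes can stand in both of the following classes. Summits within 150 bp of a start were at 42.3% in the family, against 33.8% for the other genes, and summits farther away at 38.6% against 31.8%. The higher GC content was not seen in windows from 250 bp before to 50 bp after a start. There the median was 37.7% at the 11 genes, against 38% at the other genes with a peak. Over all genes it was 36.3% in the family and 38% in the others.

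The DRE was present in the 201 bp summit windows of eIF6, eEF1gamma and eIF1, 3 of 11 (27.3%), against 3.60% of the start peaks of other genes. With summits within 150 bp of a start it was in 2 of 7 family windows (28.6%), against 6.96% of the others. With summits farther away it was in 1 of 4 (25%), against 2.38%. The eIF1 window is that of the peak shared with RpL28, whose start is nearer, and it also counts in the ribosomal protein list. It was present in 16 of the 57 windows of ribosomal protein genes (28.1%), in 0 of 18 of mitochondrial ribosomal protein genes (which allows up to 16.7%) and in 1 of 11 of synthetase genes. Promoters, taken from 250 bp before to 50 bp after a start, held it at 14 of 52 family genes (26.9%), against 9.08% of 13916 other protein-coding genes. Within the family it was in 2 of 11 promoters with a peak and 12 of 41 without. The E-box (cacgtg, both strands) was in the eEF2 window alone, 9.09% against 1.91% of other start peaks, and the GAGA element (gagag, both strands) in the eEF1alpha1 window alone, 9.09% against 22.1%. The core of Ohler motif 1 (ggtcacact, both strands), another housekeeping promoter element, was in none of the 11 windows (a count of 0 that allows up to 27.3%), against 1.46% of the others. The core of Ohler motif 7 (catcncta, both strands) was in none, against 4.39%.

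The letters cttt beginning within 5 bases of the start on the sense strand, the core of the polypyrimidine initiator known from fly ribosomal protein genes, were at the starts of eEF1alpha1, eEF2, eIF3f1, eIF3i and eIF4A. That is 5 of 52 family genes (9.62%), against 5.75% of other protein-coding genes and 44.1% of the ribosomal protein genes. With a peak they were found at 2 of 11 genes, both elongation factors, and without at 3 of 41.

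**Figure D5:**
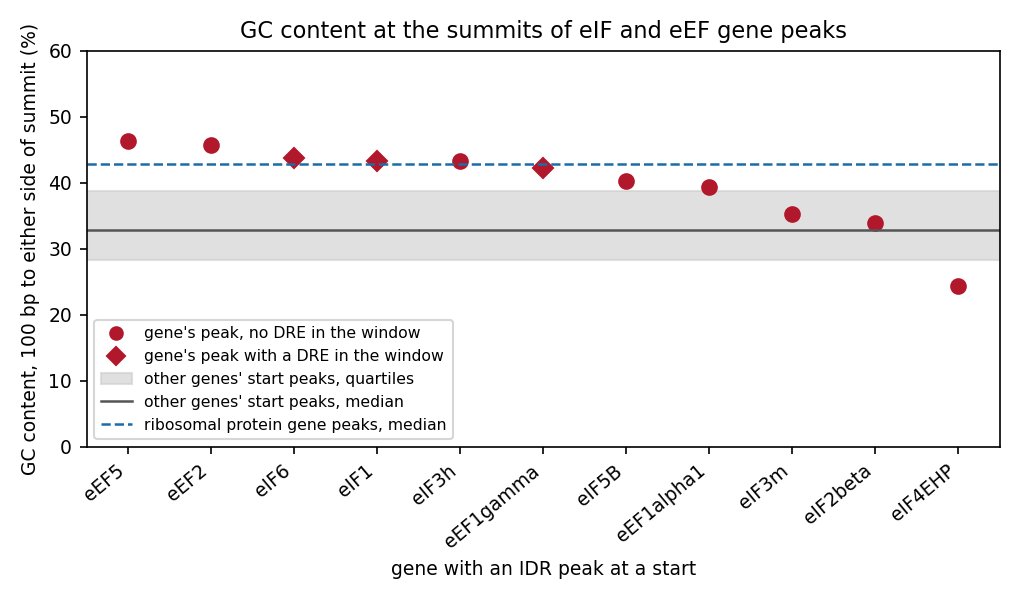
GC content within 100 bp to either side of the IDR summit (y axis, %) for the 11 eIF and eEF genes with a peak, from high to low; diamonds mark windows with a DRE. The grey band and line are the quartiles (28.4% and 38.8%) and median (32.8%) of start peaks of other protein-coding genes, and the dashed line is the median of ribosomal protein gene peaks (42.8%). 8 genes lie above the band and eIF4EHP below it.

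Other genes of translation gave a mixed picture beside the 21.2% of the family and the 17.0% of the other genes. Cytoplasmic ribosomal protein genes, an abundant set that includes many of the most highly expressed genes of a cell, had an IDR peak at 57 of 93 (61.3%, Wilson 95% interval 51.1 to 70.6), an interval that lies wholly above the family's. Their replicates gave 44.1%, 55.9% and 72.04% with a strong call, again with replicate 3 highest. Mitochondrial ribosomal protein genes had a peak at 18 of 73 (24.7%, interval 16.2 to 35.6) and aminoacyl-tRNA synthetase genes at 11 of 35 (31.4%, interval 18.6 to 47.98), both overlapping the interval of the family.

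Of 4 release and recycling genes, 3 had an IDR peak (75%, Wilson 95% interval 30.1 to 95.4), against 17.0% of the other protein-coding genes. With so few genes the interval is wide, and strong calls were present at 4, 2 and 3 of them in replicates 1 to 3. eRF3, the GTPase partner of the release factor, had rank 1432 with a signal of 126, 86.03 and 113 in replicates 1 to 3. eRF1, which recognises stop codons, had rank 3553 with 75.7 in replicate 1, 50.97 in replicate 3 and no call in replicate 2. pelo, a rescue factor for stalled ribosomes, had rank 5146 with 52.4, 13.2 and 56.7. Of 18 genes that control initiation, 2 had an IDR peak (11.1%, Wilson 95% interval 3.1 to 32.8, which covers the 17.0%). These were larp, which encodes an RNA-binding protein, at rank 12 (904, 548 and 741 in replicates 1 to 3) and crc, the fly ATF4, a transcription factor translated when eIF2alpha is phosphorylated, at rank 2665 (74.0, 71.05 and 72.9).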

How the data were processed

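The authors deposited peak lists on builds dm3 and dm6. Per the file records deposited with the samples, the relaxed lists hold peaks and background as input for the IDR analysis and the IDR set was made from them. The deposited signal value of each call (column 7) ranked calls within a list. Its scaling between libraries is unknown, so an SD over replicates may include scale. The deposited significance column is on a −log10 scale and was not used for results. No peak caller, aligner, IDR threshold, read depth or treatment of reads matching several places is given in the sources used here, so no read-based error or depth could be attached to a value. Relaxed lists held 30000, 29322 and 30000 calls in replicates 1 to 3.

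The dm6 lists were compared with Ensembl release 115 (transposable elements left out) and the Release 6 genome sequence, whose chromosome lengths hold all calls. A gene took its strongest call with the summit within 500 bp of any transcript start, and coordinates are 1-based. Promoters used the start nearest a gene's IDR summit, otherwise its outermost start. Intervals are Wilson 95% intervals (scipy 1.17.1) and cover counting error only, and the upper limit of a count of 0 is 3 counts of the total. No test was run. Genes are not replicates, and the 3 samples are replicates of 1 group whose separate origin is known only from the labels. The assignment of summits to starts was checked on simulated peaks.

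The members and lists were chosen with earlier results of these data known. Named were all members with an IDR peak at a start, those without a peak whose worst replicate rank was best (only 4 members without a peak had a call in every replicate), those with no call, members of the release and control lists with a peak, and genes whose start was nearer to a member's summit. Other names were chosen after their values were seen. Of 24 entries in the release and control lists, 2 matched no symbol. The dm3 lists were not used. The summit distance, starts, assignment, rank limit, replicates and sequence window were varied.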

Additional observations from a re-analysis of the deposited data

How the results depend on the processing

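The share in the family stayed above that of the other genes under every alternative run, in the IDR set and in the mean of the replicates, but in several cases by little, and not in replicate 2 alone when all calls counted. With summits within 250 bp, 17.3% of the family against 12.4% of the other genes had an IDR peak, and within 1000 bp 26.9% against 20.6%. In the mean of the replicates these were 16.7% against 12.9% and 26.3% against 21.3%. Counting only outermost starts gave 21.2% against 14.3%, with the same 11 genes, and 19.2% against 15% over the replicates. Counting only the nearest start gave 17.3% against 13.1%, and over the replicates 14.1% against 13.5%, an excess of 0.634 percentage points. In the IDR set this dropped eIF4EHP and eIF6, the members with the strongest peaks (ranks 37 and 60). There eIF1 and eEF1alpha1 stayed only through their weaker peaks, of ranks 4889 and 6207. Genes with no other gene's start nearby gave 13.3% against 11.5%, and the stronger IDR peaks 13.5% against 10.5%. All replicate calls gave 41.7% against 39.5% and the strongest 3000 gave 12.2% against 9.84%. Leaving out 1 replicate while also requiring overlapping strong calls in both others gave 13.5% to 17.3% of the family and 13.4% to 13.7% of the other genes, with the excess down to 0.00524 percentage points without replicate 3. These sets held fewer peaks (4937 to 5001), and the added requirement and the missing replicate cannot be told apart. The share of strong replicate calls, where nothing was added, was 19.2% to 23.1% of the family against 17.3% to 17.8%. The order of the median signals turned with summits within 250 bp, at 174 in the family against 226, where eIF4EHP and eIF2beta dropped out and eIF1 and eIF3h took their weaker peaks.

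For sequences, windows reaching 50 bp to either side held the E-box at 0% of member peaks. In other start peaks they held the DRE at 1.35%, the E-box at 0.788%, GAGA at 10.2% and the Ohler motif 1 and 7 cores at 0.563% and 1.69%. Promoter windows of other genes with a peak held these at 10.2%, 3.90%, 38.4%, 6.6% and 10.2%. The DRE share stayed higher at family genes with a peak, at 18.2% in both windows, but this is 2 of 11 genes each time. Family promoters without a peak held it at 12 of 41 (29.3%). The median GC content within 50 bp of the summit was 44.6% in the family, against 30.7% in other start peaks. In promoter windows of genes with a peak it was 37.7% against 38%, so the higher value was limited to the summit windows. Unknown read depth limits every absence, and a member without a call may have had too few reads.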
